A study of Mus musculus with 12 samples.

Results

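The Wnt ligands, their receptors, their secreted inhibitors and a few transcriptional readouts of the pathway were followed through the conversion of mouse fibroblasts to sphere cells. Members were taken by gene symbol: every probe annotated as a Wnt, Fzd, Dkk or Sfrp gene, and every probe for Lrp5, Lrp6, Axin2, Lef1, Tcf7, Tcf7l1 or Tcf7l2. This gave 58 probes for 42 genes, out of 22366 annotated probes for 15357 genes. Tcf7 had 0 probes in the annotation used. The 42 genes were 19 ligands, 9 frizzled receptors, 2 co-receptors, 8 secreted inhibitors and 4 genes of the transcriptional end of the pathway.

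RNA was measured on 12 Illumina bead arrays, 3 per group. The group labelled MEF was PMEF_NL, primary embryo fibroblasts of strain FVB/N with neomycin resistance. The sphere cells, also FVB/N, had been converted from fibroblasts by growth in medium with AlbuMAX I, a lipid-rich bovine serum albumin, and were sampled at passage 5 and at passage 15. The MES group was J11, an embryonic stem cell line of strain 129/Sv that the study used as its reference population. Nothing in the labels says that the 3 arrays of a group came from separate cultures, so the p-values measure the spread between arrays, which may be technical. All passage 15 and MES arrays lay on chip 1, replicates 1 and 2 of passage 5 and MEF on chip 2, and replicate 3 of both on chip 3.

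Wnt proteins are secreted lipid-modified ligands that bind frizzled receptors together with the co-receptors Lrp5 and Lrp6. In the canonical branch this stabilises beta-catenin, which enters the nucleus and acts with TCF/LEF factors on target genes such as Axin2, itself a feedback inhibitor. Dkk1 blocks the co-receptors and Sfrp proteins bind Wnt ligands outside the cell, while Wnt5a is best known for beta-catenin-independent signalling. In mouse embryonic stem cells canonical Wnt signalling favours self-renewal.

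Promoter windows from RefSeq (build GRCm38.p6, 250 bases before to 50 after a gene's start) were found for 28 of the 42 genes, 35 windows in all. Both strands were searched for the TCF/LEF motif CTTTGAT or CTTTGAA, which was present in 2842 of all 32851 windows (8.651%) and in 3 of the 35 member windows, those of Dkk1, Wnt5b and Wnt11. The windows of Dkk1, Axin2, Wnt3a and Wnt6 are shown because the results turn on these genes: an inhibitor called higher at passage 5, the feedback readout, and the 2 ligands called in most comparisons. Each is written 5′ to 3′ on the strand of its gene, with the motif in capitals.
Dkk1, chr19:30549447-30549746, minus strand: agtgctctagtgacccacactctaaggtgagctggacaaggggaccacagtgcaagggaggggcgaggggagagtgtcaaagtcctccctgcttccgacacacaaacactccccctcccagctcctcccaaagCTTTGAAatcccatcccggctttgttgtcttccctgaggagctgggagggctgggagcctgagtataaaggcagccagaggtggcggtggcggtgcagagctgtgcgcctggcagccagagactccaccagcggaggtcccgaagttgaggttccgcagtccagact
Axin2, chr11:108920099-108920398, plus strand: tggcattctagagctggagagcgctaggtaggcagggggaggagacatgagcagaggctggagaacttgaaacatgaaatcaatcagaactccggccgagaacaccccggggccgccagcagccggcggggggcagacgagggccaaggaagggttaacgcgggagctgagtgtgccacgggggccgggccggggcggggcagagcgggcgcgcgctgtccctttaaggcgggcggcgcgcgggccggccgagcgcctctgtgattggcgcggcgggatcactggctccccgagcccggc
Wnt3a, chr11:59290702-59291001, minus strand: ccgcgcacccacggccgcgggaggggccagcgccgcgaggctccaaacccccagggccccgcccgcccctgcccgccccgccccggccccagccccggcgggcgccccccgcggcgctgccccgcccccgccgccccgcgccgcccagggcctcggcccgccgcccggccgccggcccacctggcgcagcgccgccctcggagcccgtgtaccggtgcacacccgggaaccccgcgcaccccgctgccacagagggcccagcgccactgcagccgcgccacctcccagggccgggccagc
Wnt6, chr1:74771642-74771941, plus strand: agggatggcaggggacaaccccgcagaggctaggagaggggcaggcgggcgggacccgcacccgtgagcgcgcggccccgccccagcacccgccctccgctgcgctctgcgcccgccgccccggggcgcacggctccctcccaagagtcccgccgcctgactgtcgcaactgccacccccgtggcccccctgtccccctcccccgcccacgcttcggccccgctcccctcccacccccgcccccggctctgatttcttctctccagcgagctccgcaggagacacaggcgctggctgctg
The Dkk1 window holds the motif 117 bases before the start, and the other 3 windows do not hold it. GC content was 60.7% for Dkk1, 70.0% for Axin2, 86.3% for Wnt3a and 76.7% for Wnt6, against a median of 67.3% over the member windows and 52.7% over all windows. A match of letters is a description of the window and does not show binding.

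Each array had 15761 to 19060 probes above background (33.8% to 40.87% of those analysed), and 20 to 27 of the 58 member probes. Intensities are on a log2 scale after background correction and quantile normalization, and the level below which a probe was not well above background lay between 4.916 and 5.267. Within a group the arrays correlated at 0.967 to 0.995 across probes. The arrays labelled MEF had transcripts of pluripotent cells: 9 of 11 measured pluripotency markers were detected on all 3. The summed intensity of the 11 was 13517.3 to 23030 in MEF and 24734.7 to 26643.9 in MES. It was 20932.4 to 23989.5 at passage 5 and 25244.8 to 27666.3 at passage 15. The label is therefore kept as a label, and differences from MEF are not differences from fibroblasts free of such transcripts. Replicate 3 of MEF and of passage 5 stood apart from the other replicates in marker levels. MEF replicate 3 had the highest summed fibroblast markers (48073.1, against 23708.6 and 31986.5) and the lowest summed pluripotency markers (13517.3, against 23030 and 20766.9), and passage 5 replicate 3 had the lowest fibroblast sum of its group (772.8, against 4155.8 and 2823). Levels of different probes are not comparable with each other, so each gene is compared only with itself.

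**Figure D1:**
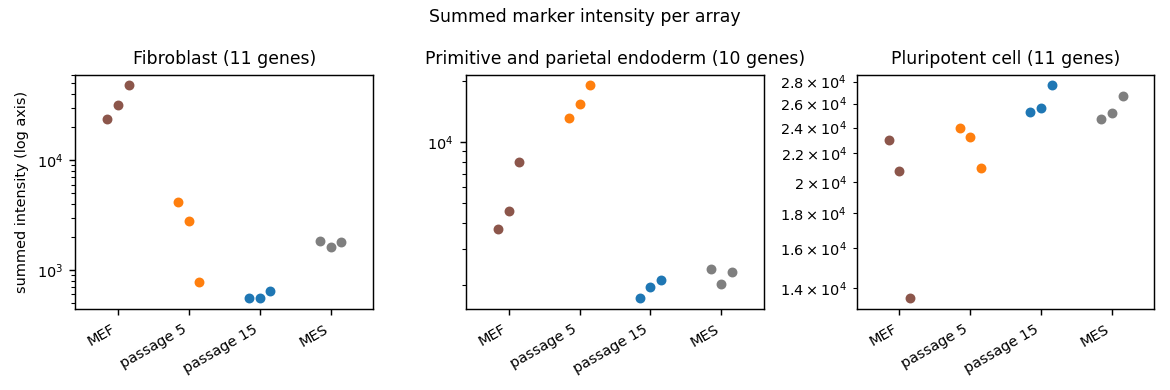
Summed linear intensity (log axis) of the measured fibroblast (11), primitive and parietal endoderm (10) and pluripotent cell (11) markers on each of the 3 arrays of MEF, passage 5, passage 15 and MES. Fibroblast sums lie highest in MEF (23708.6 to 48073.1), and endoderm sums lie highest at passage 5 (13110.7 to 18987.1).

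Of the 42 genes, 24 had a probe detected on all 3 arrays of at least 1 group (28 probes), and these were tested. A detected gene could pass through the 1 group where it was high, so the 24 are not a neutral sample of the 42. The other 18 were not tested, and 14 of them were detected on no array: Wnt1, Wnt4, Wnt7a, Wnt7b, Wnt8a, Wnt8b, Wnt9b, Wnt11, Wnt16, Fzd8, Dkk2, Dkk4, Sfrp4 and Sfrp5. Wnt2 was detected on 2 of 3 MEF arrays, Wnt10b on 2 of 3 passage 15 arrays and 1 MEF array, and Wnt3 and Fzd4 on 1 passage 15 array each. By role, 7 of 19 ligands, 7 of 9 frizzled receptors, both co-receptors, 4 of 8 inhibitors and 4 of 4 genes of the transcriptional end were tested. Of the 24, 14 were detected on all 3 arrays of all 4 groups, and 7 had a group in which no array detected them.

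**Figure D2:**
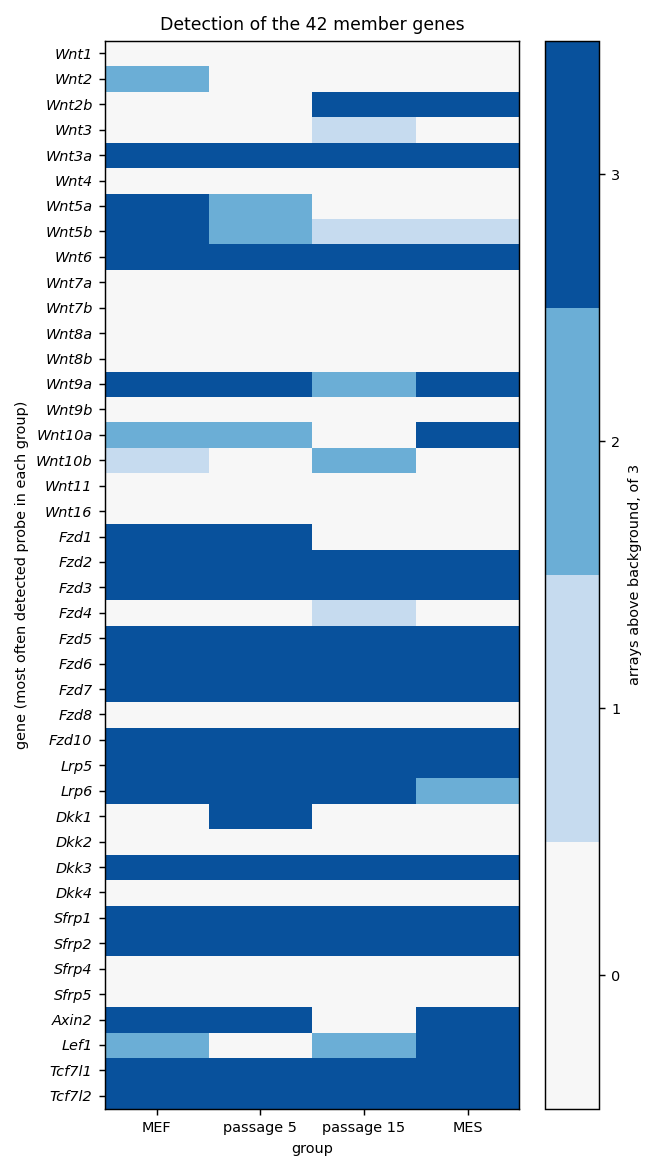
Number of arrays (of 3) on which each of the 42 member genes was above background, by group, using the gene's most often detected probe in each group. Wnt5a (2 of 3 arrays at passage 5) and Fzd1 are detected in MEF and passage 5 but not at passage 15 or in MES, Dkk1 is detected at passage 5 only, and Axin2 in every group but passage 15.

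A member was called where its difference had a Benjamini-Hochberg adjusted p under 0.05 over all 19444 tested probes in limma and was at least 2-fold. Of the 24 members, 12 were called in at least 1 of 6 comparisons, with 37 called differences in all. The same tally was not made over all probes, so shares are given per comparison. At passage 5 against MEF, 6 of 24 members were called, beside 9.94% of all probes: 2 were higher (3.92% of all probes) and 4 lower (6.02%). At passage 15 against MEF, 9 were called, beside 28.4% of all probes: 2 higher (13.2%) and 7 lower (15.2%). At passage 15 against passage 5, 5 were called, beside 21% of all probes: 2 higher (9.13%) and 3 lower (11.9%). Against MES, 5 were called at passage 5, beside 15.4% of all probes, 2 higher (9.82%) and 3 lower (5.55%). At passage 15 against MES 4 were called, beside 7.26%, 1 higher (3.84%) and 3 lower (3.42%). MEF against MES gave 8, beside 21% of all probes, 5 higher (12.5%) and 3 lower (8.49%). The median difference of the 24 members was −0.08, against 0.04 over all tested probes, at passage 5 against MEF, and −0.11 against 0.09 at passage 15 against MEF. It was −0.21 against −0.03 at passage 15 against passage 5. Of the 37 calls, 14 were lost with the authors' deposited log2 values or an offset of 50: Wnt9a at passage 5 against MEF, Dkk1 at passage 5 and Axin2 at passage 15 (each against MEF and MES), Wnt6 and Dkk3 at passage 15 against passage 5, Wnt6 and Sfrp2 at passage 15 against MEF, Fzd10, the Wnt10a calls against MES, and Sfrp2 for MEF against MES.

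Median scaling in place of quantile normalization moved these splits. The median difference of all probes was then −0.63 at passage 15 against passage 5 (−0.03 under quantile normalization), 0.56 at passage 5 against MES (−0.04), −0.31 at passage 15 against MEF (0.09) and 0.24 for MEF against MES (−0.14). Members called higher and lower then numbered 1 and 10 at passage 15 against passage 5, and 8 and 2 at passage 5 against MES. They numbered 1 and 10 at passage 15 against MEF, and 9 and 2 for MEF against MES. In the same order, 6678, 5422, 5629 and 4203 of all 19444 tested probes were called. Comparisons of passage 15 with MEF or passage 5, and of MEF or passage 5 with MES, cannot be told apart from chip, since the groups share no chip. Comparisons with MES also cannot be told apart from strain. Within chips, passage 5 could be set against MEF on chips 2 and 3, and passage 15 against MES on chip 1.

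**Figure D3:**
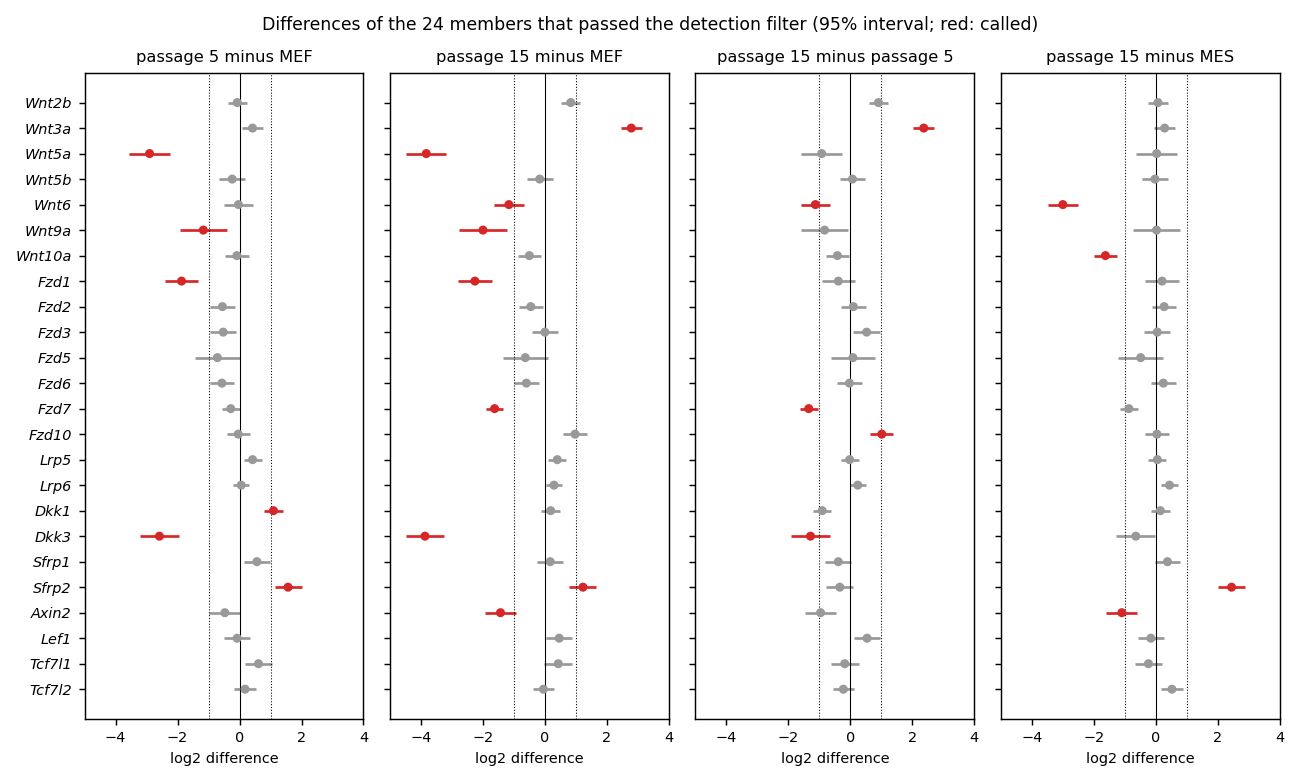
Log2 difference with 95% interval for the 24 tested members (rows) in 4 comparisons (panels), with called differences in red and dotted lines at 2-fold. Wnt5a, Dkk3 and Fzd1 lie far to the left in both comparisons with MEF, Wnt3a far to the right at passage 15, and Sfrp2 to the right at passage 15 against MES.

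Of the 7 tested ligands, 2 were called at passage 5 against MEF (28.6%, beside 9.94% of all probes), both lower. At passage 15 against MEF, 4 of 7 were called (57.1%, beside 28.4% of all probes), 3 lower and 1 higher. Wnt5a, a ligand of mesenchymal cells, was at 8.18, 8.58 and 8.82 on the arrays labelled MEF, at 6.38, 5.68 and 4.81 at passage 5, at 4.54, 4.82 and 4.72 at passage 15, and at 4.74, 4.51 and 4.75 in MES. Every MEF array lay above every passage 5 array, 2 of 3 passage 5 arrays were above background, and no passage 15 or MES array was. The difference at passage 5 against MEF was −2.90 ± 0.30 (SE; limma adjusted p = 2.18e-05). At passage 15, with mean 4.70 against 8.53 in MEF, Wnt5a was at least 10.3-fold lower (limma adjusted p = 7.13e-07). In MEF it was at least 10.6-fold higher than in MES, where the mean was 4.67 (1.16e-06). A second Wnt5a probe moved less, with a passage 5 mean of 4.75 against 6.65 in MEF and a difference of −1.90. By that probe Wnt5a was at least 2.81-fold lower at passage 15 than in MEF, and at least 2.89-fold higher in MEF than in MES.

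Wnt9a was at 7.18, 7.61 and 8.34 in MEF, at 6.46, 6.48 and 6.69 at passage 5, at 6.27, 6.04 and 4.81 at passage 15, and at 5.59, 5.45 and 6.02 in MES. The MEF arrays were the highest, without overlap with passage 5, and 1 passage 15 array was below background. By contrast, the other Wnt9a probe was above background on no array and was not tested. The tested Wnt9a probe differed by −1.17 ± 0.35 at passage 5 (limma adjusted p = 0.0251) and −2.0 ± 0.35 at passage 15 (0.000314), each against MEF. The passage 5 call did not hold in 10 of its 21 alternative settings, among them the removal of MEF replicate 2 (adjusted p = 0.0541) or replicate 3 (0.112), and of each passage 5 replicate (0.053 to 0.0709).

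Within chips, Wnt9a differed at passage 5 against MEF by −0.93 on chip 2 and −1.65 on chip 3. Wnt5a differed by −2.35 on chip 2, and on chip 3 the passage 5 array was not above background, so no size is given there. The fibroblast markers moved in the same comparisons. Against MEF, 10 of 11 were called lower at passage 5 (beside 6.02% of all probes) and 10 of 11 at passage 15 (beside 15.2%). Their summed intensity was 772.8 to 4155.8 at passage 5 and 551.5 to 650.4 at passage 15, against 23708.6 to 48073.1 in MEF. Col1a2 was detected on no passage 5 array, and Col1a1, Col1a2, Col3a1, Postn and Prrx1 on no passage 15 array. The part of these markers in the Wnt results was not tested, and in bulk RNA a smaller share of a cell type cannot be told apart from less RNA per cell.

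Wnt3a, a canonical ligand that supports stem cell self-renewal, took the opposite course. It was at 5.35, 5.49 and 5.09 in MEF, 5.89, 5.73 and 5.56 at passage 5, 8.01, 8.07 and 8.21 at passage 15, and 7.92, 7.56 and 7.95 in MES. The passage 15 arrays lay above all arrays of every other group, and passage 5 and MEF were both low. Wnt3a was higher at passage 15 by 2.79 ± 0.15 than in MEF (limma adjusted p = 1.1e-07) and by 2.37 than at passage 5 (7.27e-07). Against MES it differed by 0.28 at passage 15, which missed the threshold (0.202), and by −2.08 at passage 5 (1.69e-06).

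Wnt6 and Wnt10a are direct neighbours on chromosome 1, with 0 protein-coding genes between them, and both were highest in MES and lowest at passage 15. Wnt6 was at 7.10, 7.0 and 6.22 in MEF, 6.71, 6.75 and 6.75 at passage 5, 5.90, 5.65 and 5.27 at passage 15, and 8.77, 8.48 and 8.57 in MES. No passage 15 array reached the lowest array of any other group. At passage 15 Wnt6 was lower than in MES (−3.0 ± 0.22 on the log2 scale), MEF (−1.16) and passage 5 (−1.13), with limma adjusted p of 6.56e-06, 0.000537 and 0.000909. At passage 5 it differed from MES by −1.87. A second Wnt6 probe gave −2.87 at passage 15 against MES. Without passage 15 replicate 3, the differences from MEF and passage 5 were −0.995 and −0.96, both just under 2-fold.

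Wnt10a was at 5.23, 5.03 and 4.81 in MEF, 5.15, 5.03 and 4.63 at passage 5, 4.55, 4.52 and 4.49 at passage 15, and 6.34, 5.83 and 6.27 in MES. Only the MES arrays were clear of the background level on all 3, with 2 of 3 detected in MEF and at passage 5 and none at passage 15. It was at least 1.99-fold lower at passage 15 than in MES (means 4.52 and 6.15; limma adjusted p = 7.38e-05), and −1.21 at passage 5 and −1.12 in MEF against MES. Wnt3a and Wnt9a, also direct neighbours (chromosome 11), differed from MEF at passage 15 in opposite directions.

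**Figure D4:**
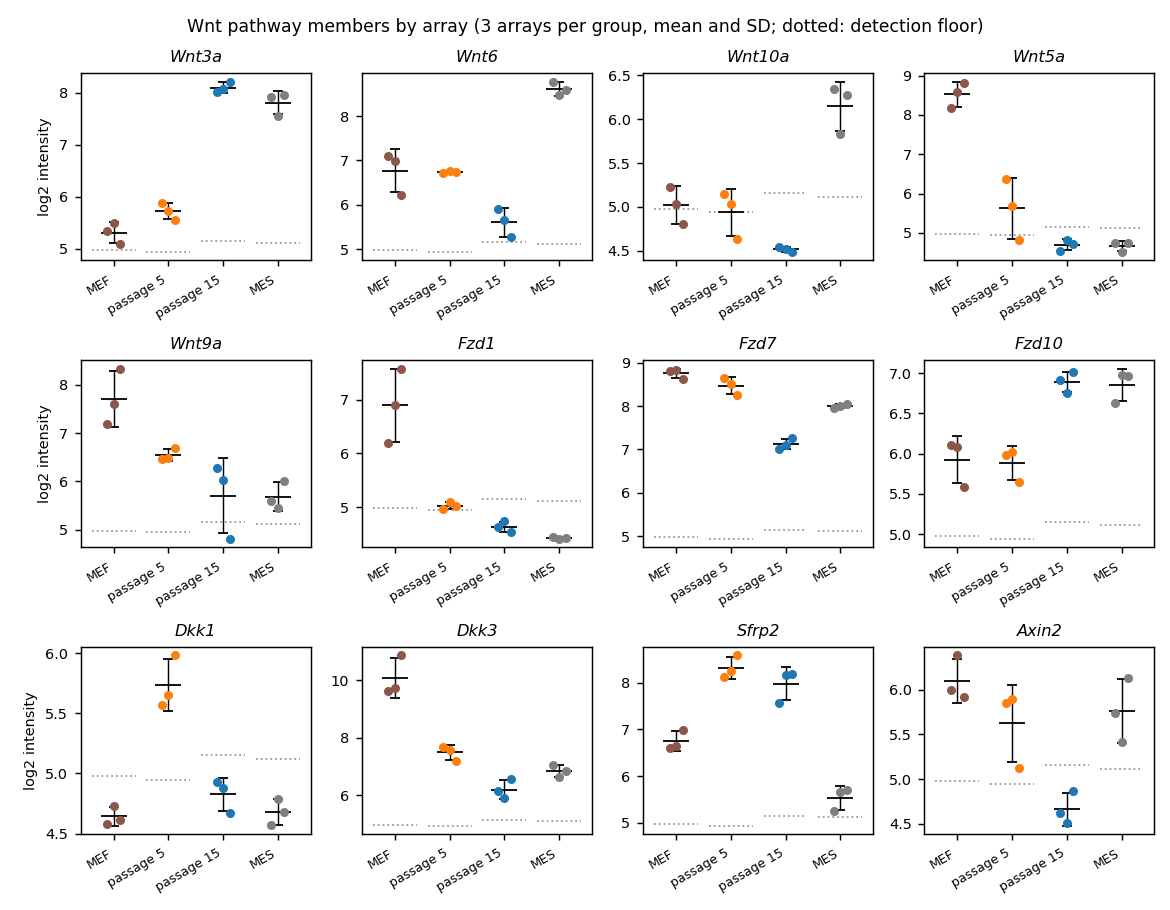
Log2 intensity on each array of the 12 members called in at least 1 comparison, in MEF, passage 5, passage 15 and MES, with the mean and SD (n = 3) and the detection floor as a dotted line; the vertical scale differs by panel. Wnt5a, Dkk3 and Fzd1 are highest in MEF, Dkk1 and Sfrp2 have their highest mean at passage 5, and Axin2 is lowest at passage 15.

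Wnt2b and Wnt5b were tested but called in no comparison. Wnt2b averaged 4.74 ± 0.13 in MEF and 4.66 ± 0.11 at passage 5, where no array detected it, and 5.57 ± 0.12 at passage 15 and 5.50 ± 0.23 in MES, where all 3 did (SD, n = 3). It was at least 1.54-fold higher at passage 15 than at passage 5 (means 5.57 and 4.66; limma adjusted p = 0.000207). This was not called because the measured means lay less than 2-fold apart, and with passage 5 below background the size has only a lower bound. Wnt5b lay between group means of 5.0 and 5.24 and passed the p threshold in no comparison.

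Among the receptors, Fzd1 and Fzd7 were called lower and Fzd10 higher. Of the 7 tested frizzled receptors, 1 was called at passage 5 against MEF (14.3%, beside 9.94% of all probes). At passage 15, 2 were called against MEF and 2 against passage 5 (28.6% each, beside 28.4% and 21%). The passage 15 share against MEF was thus near that of all probes. Fzd1 was at 6.20, 6.91 and 7.57 in MEF, 4.96, 5.09 and 5.02 at passage 5, 4.63, 4.73 and 4.54 at passage 15, and 4.45, 4.41 and 4.43 in MES. The arrays of no 2 groups overlapped, and no passage 15 or MES array was above background. The difference was −1.87 ± 0.25 at passage 5 against MEF (limma adjusted p = 0.000126), and Fzd1 was at least 3.34-fold lower at passage 15 than in MEF. Their means were 4.63 and 6.90 (8.38e-06). Fzd1 in MEF was at least 3.43-fold higher than in MES (means 6.90 and 4.43; 6.92e-06). Its within-chip differences at passage 5 were −1.53 on chip 2 and −2.56 on chip 3, the chip that holds the highest MEF and the lowest passage 5 sum of fibroblast markers.

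Fzd7 was at 8.81, 8.82 and 8.62 in MEF, 8.64, 8.51 and 8.25 at passage 5, 7.02, 7.10 and 7.26 at passage 15, and 7.95, 8.0 and 8.04 in MES. The passage 15 arrays were the lowest of all 12. The difference at passage 15 was −1.63 ± 0.13 against MEF and −1.34 against passage 5 (limma adjusted p = 9.19e-07 and 8.83e-06), with −0.87 against MES, under 2-fold. Fzd10 was at 6.10, 6.09 and 5.58 in MEF, 5.98, 6.02 and 5.65 at passage 5, 6.92, 6.76 and 7.01 at passage 15, and 6.63, 6.98 and 6.96 in MES. It was higher at passage 15 than at passage 5 by 1.01 (0.000374), just past 2-fold. That difference was 0.22 under median scaling, 0.89 without passage 5 replicate 3 and 0.96 without passage 15 replicate 3. The second Fzd10 probe rose by 1.07 at passage 15 over passage 5.

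Fzd2, Fzd3, Fzd5 and Fzd6 and the co-receptors Lrp5 and Lrp6 were tested and called in no comparison. Their group means ranged over at most 0.84 (Fzd6, 6.49 in MEF and 5.65 in MES), and Lrp5 over 0.42. Fzd6 differed by −0.57 at passage 5 against MEF (limma adjusted p = 0.0339) and by −0.60 at passage 15 (0.0113), and Lrp5 by 0.42 at passage 5 (0.0336), all under 2-fold. Fzd5 passed the p threshold in no comparison with its brightest probe, and a second probe differed by −0.75 at passage 5 against MES (0.0188).

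Of the 4 tested inhibitors, Dkk3 was called lower and Dkk1 and Sfrp2 higher at passage 5 against MEF (75%, beside 9.94% of all probes). Dkk3, a secreted Dickkopf family glycoprotein expressed in mesenchymal tissues, was at 9.62, 9.74 and 10.86 in MEF, 7.68, 7.59 and 7.20 at passage 5, 6.14, 5.89 and 6.56 at passage 15, and 7.04, 6.65 and 6.85 in MES. Each group of arrays lay clear of the others. The other Dkk3 probe was above background on no array and was not tested. Dkk3 differed from MEF by −2.59 ± 0.29 at passage 5 and −3.87 ± 0.29 at passage 15 (limma adjusted p = 3.63e-05 and 4.96e-07), and from passage 5 by −1.29 at passage 15 (0.00225). On chip 2 the passage 5 difference was −2.05 and on chip 3 it was −3.66.

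Dkk1, which blocks Lrp5 and Lrp6, was above background only at passage 5. It was at 4.58, 4.73 and 4.61 in MEF, 5.57, 5.65 and 5.98 at passage 5, 4.92, 4.88 and 4.67 at passage 15, and 4.57, 4.79 and 4.68 in MES. All 3 passage 5 arrays were above all other 9. Dkk1 was at least 1.69-fold higher at passage 5 than in MEF (means 5.74 and 4.64; limma adjusted p = 8.84e-05) and at least 1.54-fold higher than in MES (means 5.74 and 4.68; 7.89e-05). Without passage 5 replicate 3 both calls were lost, at measured differences of 0.97 from MEF and 0.93 from MES. With MEF and MES below background these are lower bounds, so they do not show that the change was under 2-fold. On both chips that held MEF, the passage 5 arrays were above background and the MEF arrays were not.

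The primitive and parietal endoderm markers also differed at passage 5, where 9 of 10 were called higher than in MEF (beside 3.92% of all probes). Their summed intensity was 13110.7 to 18987.1 at passage 5, against 3762.9 to 7946.9 in MEF, and 1711.1 to 2110.8 at passage 15. Sox17, Foxa2 and Lama1 were detected on no MEF array, and all 10 markers on all 3 passage 5 arrays. The part of these markers in the Dkk1 and Sfrp2 differences was not tested.

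Sfrp2, which binds Wnt ligands, was at 6.61, 6.65 and 7.0 in MEF, 8.12, 8.26 and 8.58 at passage 5, 7.57, 8.17 and 8.19 at passage 15, and 5.25, 5.66 and 5.70 in MES. Passage 5 and passage 15 overlapped, and both were above MEF, which was above MES. Sfrp2 was higher than in MEF by 1.57 ± 0.20 at passage 5 and by 1.23 ± 0.20 at passage 15 (limma adjusted p = 0.000102 and 0.000195). Under median scaling the passage 15 difference was 0.60. It was higher than in MES by 2.78 at passage 5 and by 2.44 at passage 15 (1.49e-06 and 1.04e-05), and on chips 2 and 3 the passage 5 difference from MEF was 1.56 and 1.58. Sfrp1 was bright in every group, with group means of 9.57 (MEF), 10.12 (passage 5), 9.73 (passage 15) and 9.36 (MES), and was called in no comparison.

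Of 4 genes at the transcriptional end, 1 was called at passage 15 against MEF (25%, beside 28.4% of all probes) and against MES (beside 7.26%). This was Axin2, lower in both. It was at 6.0, 6.38 and 5.92 in MEF, 5.85, 5.90 and 5.13 at passage 5, 4.62, 4.50 and 4.87 at passage 15, and 5.74, 5.41 and 6.13 in MES. No passage 15 array was above background, and every array of the other groups was. It was at least 1.92-fold lower at passage 15 than in MEF (means 4.66 and 6.10; limma adjusted p = 0.00017) and at least 1.52-fold lower than in MES (means 4.66 and 5.76; 0.00502). Against passage 5 it was at least 1.38-fold lower (means 4.66 and 5.63; 0.00361), and this was not called. The call against MES was lost without MES replicate 3, at a measured difference of −0.91, and under median scaling (−0.80; adjusted p = 0.0692). With passage 15 below background these sizes are lower bounds, so they do not show that the change was under 2-fold.

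Lef1, Tcf7l1 and Tcf7l2, the TCF/LEF factors measured, were called in no comparison. By its only tested probe, Lef1 had group means of 4.92 (MEF), 4.84 (passage 5), 5.38 (passage 15) and 5.54 (MES). It was detected on all 3 arrays only in MES. An untested Lef1 probe ran the other way, with 2 arrays detected in MEF (mean 4.95) and none in MES (mean 4.61). A further Lef1 probe was detected on no array. Tcf7l1 lay between 5.74 in MEF and 6.41 in MES. Tcf7l2 averaged 8.69 at passage 5 and 7.95 in MES, its lowest group, a difference of 0.75 (limma adjusted p = 0.0023).

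Genes that release or boost Wnt ligands were compared as a list of 10, of which 7 were on the array and 4 tested; all 4 were called at passage 5 and at passage 15 against MEF (beside 9.94% and 28.4% of all probes), 3 lower and 1 higher each time. The median difference was −1.63 at passage 5, against 0.04 over all probes. Wls, the carrier that takes Wnt ligands to the cell surface, was at 7.77, 8.03 and 9.01 in MEF, 5.81, 5.43 and 4.63 at passage 5, 4.93, 4.91 and 4.9 at passage 15, and 5.06, 5.15 and 4.86 in MES. MEF lay above all other arrays. It differed from MEF by −2.98 at passage 5 (limma adjusted p = 2.3e-05) and was at least 8.65-fold lower at passage 15 (2.3e-06). Porcn, the acyltransferase that adds the ligands' lipid, ran the other way: it was at 6.84, 6.57 and 6.0 in MEF, 7.53, 7.46 and 7.48 at passage 5, and 8.10, 8.39 and 8.28 at passage 15, higher than MEF by 1.02 and 1.79. Rspo2 and Rspo3, which boost Wnt signalling, differed from MEF by −1.61 and −1.65 at passage 5, where 1 and 2 of 3 arrays were above background. With an offset of 50 or the authors' deposited log2 values, 2 of the 4 were called at passage 5 against MEF. Without MEF replicate 3 the passage 5 difference of Porcn was 0.79.

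Other secreted or membrane inhibitors, 9 tested of 18 listed, gave 2 calls at passage 5 against MEF (1 higher, 1 lower) and 3 at passage 15 (1 higher, 2 lower). These are 22.2% and 33.3% of the list, beside 9.94% and 28.4% of all probes, so the passage 15 share was near that of all probes. Notum, an enzyme that removes the ligands' lipid and a common Wnt target, was higher at passage 15: 7.34, 7.26 and 7.52, against 6.19, 6.34 and 6.02 at passage 5. It exceeded MEF by 1.46, passage 5 by 1.19 and MES by 2.01 (limma adjusted p = 2.9e-05, 0.00022 and 2.5e-05). Under median scaling the differences were 0.83 from MEF and 0.36 from passage 5 (adjusted p = 0.0101 and 0.203), and neither was called. The difference from passage 5 was also under 2-fold with the authors' deposited log2 values (0.87) and with an offset of 50 (0.91). Apcdd1, a membrane inhibitor, differed at passage 15 by −1.76 from MEF and by −1.44 from passage 5, the second −0.93 with the authors' deposited log2 values. Dkkl1, a Dickkopf-like protein, was higher at passage 5 than in MEF by 1.69. Igfbp4, which can bind frizzled 8 and Lrp6, differed from MEF by −1.34 at passage 5 and −2.20 at passage 15. The passage 5 count was 1 without MEF replicate 2 or 3, and without passage 5 replicate 2 or 3.

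**Figure D5:**
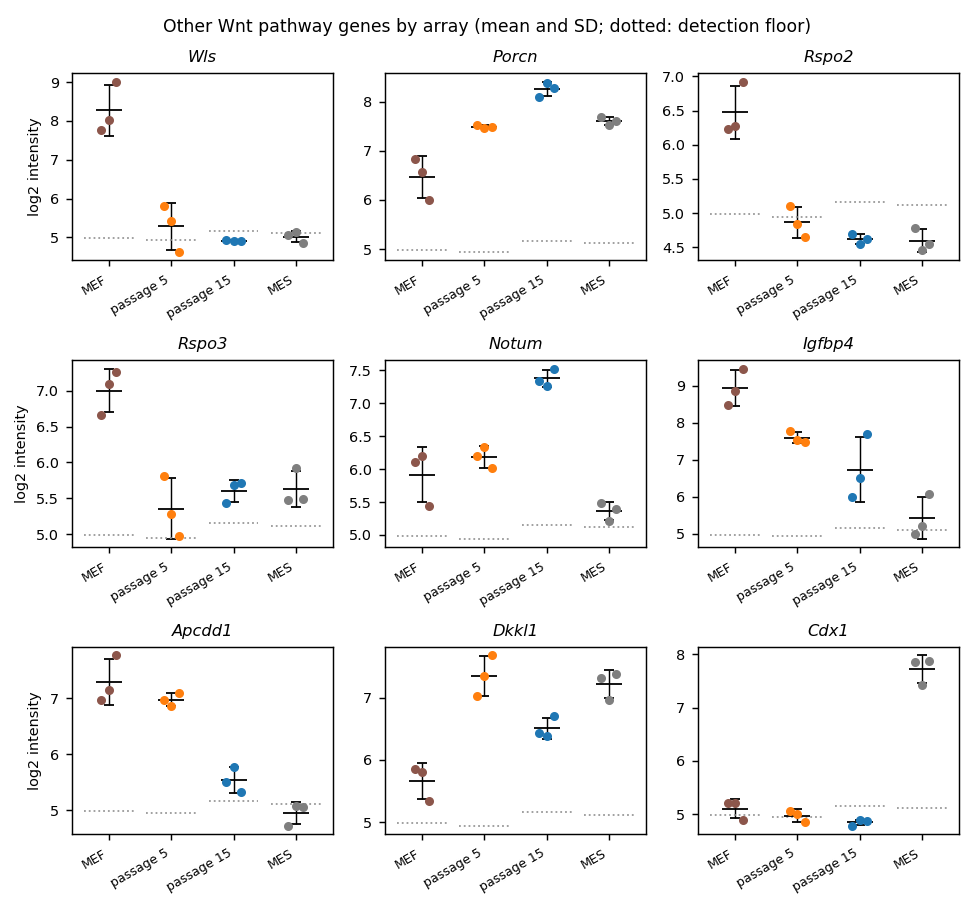
Log2 intensity on each array of 9 other pathway genes in MEF, passage 5, passage 15 and MES, with the mean and SD (n = 3) and the detection floor as a dotted line; the vertical scale differs by panel. Wls, Rspo2 and Rspo3 are highest in MEF, Porcn and Notum highest at passage 15, and Cdx1 is clearly above background only in MES.

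Common beta-catenin targets, 14 tested of 22 listed, gave 5 calls at passage 5 against MEF, all lower, and 8 at passage 15 against MEF, 2 higher and 6 lower. These are 35.7% and 57.1% of the list, beside 9.94% and 28.4% of all probes. The median difference was −0.38 at passage 5 and −0.26 at passage 15, against 0.04 and 0.09 over all probes. At passage 15 the lower genes were Cd44, Sox9, Jun, Id2, Fosl1 and Ccnd1, and the higher were Notum and Tnfrsf19, a receptor of the TNF family. Cd44, a cell-surface hyaluronan receptor of mesenchymal cells, was at least 15-fold lower at passage 15 than in MEF by its brightest probe (limma adjusted p = 1.2e-06), while a second probe differed by −0.92. Cdx1, a homeobox gene, was at 4.79, 4.89 and 4.87 at passage 15, none above background, against 7.87, 7.42 and 7.87 in MES. It was at least 5.91-fold lower at passage 15 (limma adjusted p = 1.2e-06). Against MES, 4 targets were called at passage 5 (28.6%, beside 15.4% of all probes) and 2 at passage 15 (14.3%, beside 7.26%). With the authors' deposited log2 values or an offset of 50, the passage 15 calls of Tnfrsf19 and Fosl1 against MEF were lost. Under median scaling the difference of Tnfrsf19 was 0.80.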

How the data were processed

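Total RNA of 12 cell samples was hybridised as biotinylated cRNA, per the labels. The deposited raw table gives per probe a background-subtracted bead intensity on a linear scale together with a p-value for detection (columns so named per the file headers). A second deposited table holds the authors' normalized log2 values; its software is not given in the sources used here. Background correction and quantile normalization of these intensities used the neqc function in limma 3.58.1 (R 4.3.3, offset 16). Of 46657 probes, 20 were left out because a spreadsheet date stood in place of a value. The filter kept 19444 probes: those for which some group had all 3 arrays below a detection p of 0.05. They were fitted with limma (1 mean per group, all 12 arrays, eBayes, 8 residual degrees of freedom), and p was adjusted by Benjamini-Hochberg over all kept probes within each of 6 comparisons. The limma procedure was checked on simulated data.

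A gene was read by its brightest kept probe. Where it was above background on no array of 1 group, its change is a lower bound ("at least"), taken against each array's lowest signal among probes well above background. Values on every array are given for called members, and up to 4 called genes are named per further list. For 7 tested members a further probe did not pass the filter and was not tested. Members and lists were chosen with earlier results of these data known. The platform annotation matched RefSeq by Entrez ID for all 58 member probes, and 0 symbols changed. No depth of reads applies to arrays, so the number of arrays limits the precision. Alternatives were another normalization, offset, filter, probe summary, variance model and block, and leaving out each array.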

Additional observations from a re-analysis of the deposited data

How the results depend on the processing

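Of the 37 called member differences, 23 were called under every alternative, 14 lost the call in at least 1, and 0 reversed. With no fold threshold the members called numbered 11 at passage 5 against MEF, 16 at passage 15 against MEF, 11 at passage 15 against passage 5, 12 at passage 5 against MES, 7 at passage 15 against MES and 17 for MEF against MES. Beside these counts out of 24 members, calls over all 19444 tested probes were 5395, 12825, 11237, 9948, 4947 and 11433, in the same order. The authors' deposited log2 values gave 2 members at passage 15 against passage 5 (2341 of all probes) and 3 at passage 5 against MES (1614). An offset of 50 gave 2, 3 and, at passage 15 against MES, 2 (2384, 1664 and 660 of all probes). Median scaling gave 11 at passage 15 against passage 5 (6678 of all probes) and 10 at passage 5 against MES (5422). Leaving out 1 array at a time gave 4 to 6 at passage 5 against MEF, 8 to 10 at passage 15 against MEF, 4 to 6 at passage 15 against passage 5, 5 to 6 at passage 5 against MES, 3 to 4 at passage 15 against MES and 8 to 9 for MEF against MES. Where this left 2 arrays in a group, the fit pooled the spread over groups. An offset of 50 shrinks differences of dim probes by its construction. The cause of the losses of call, under this or any other alternative, was not tested. Of 191 called differences of the further lists and markers, 122 were called under every alternative, 69 lost the call in at least 1, and 2 reversed, both of Tle3: with the mean over its kept probes it differed by −0.0788 at passage 5 against MES and −0.0693 for MEF against MES. Same-numbered arrays were checked for pairing and their deviations did not all correlate above 0.1 (0.065, 0.298 and 0.215 at passage 5 against MEF), so the numbers were not taken as pairs. The replicate block left the counts of called members at 6, 9, 5, 5, 4 and 8 in the order of comparisons above. Dkk1, Wnt10a, Axin2 and, at passage 5, Fzd1 lie near the detection floor, which limits the size of change that can be given.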

Other observations

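Co-receptors and planar polarity genes, 12 tested of 15 listed, gave 3 calls at passage 5 against MEF (1 higher, 2 lower) and 6 at passage 15 (1 higher, 5 lower), or 25% and 50% of the list beside 9.94% and 28.4% of all probes. The passage 15 count was 3 (0 higher, 3 lower) without MEF replicate 3, with the authors' deposited log2 values and with an offset of 50, and 3 to 7 over the removal of single arrays. Gpc4, a cell-surface glypican, averaged 5.74 ± 0.51 at passage 5, against 7.85 ± 0.31 in MEF (SD, n = 3), and was at least 6.45-fold lower at passage 15. Sdc1, a syndecan, averaged 4.99 at passage 5, against 6.70 in MEF. Celsr1, a planar polarity cadherin, averaged 7.78 ± 0.16 at passage 5 and 7.74 ± 0.10 at passage 15, against 6.68 ± 0.32 in MEF. Both differences were under 2-fold without MEF replicate 3 (0.92 at passage 5 and 0.87 at passage 15), with the authors' deposited log2 values and with an offset of 50. The passage 15 difference was 0.42 under median scaling (limma adjusted p = 0.106), and the passage 5 difference was 0.88 on chip 2 alone.

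The cytoplasmic core of the pathway, 14 tested of 21 listed, had 0 calls in limma at passage 5 against MEF, beside 9.94% of all probes. With no fold threshold 4 passed the adjusted p, as did 5395 of all 19444 probes. An unadjusted p under 0.05 was reached by 5. With 14 genes, the 0 calls do not show that the core changed less than other probes. At passage 15 against MEF the core had 3 calls (1 higher, 2 lower). The passage 15 share was 21.4%, beside 28.4% of all probes, and the count was 0 where every probe of a gene had to be called alike. Frat1, which inhibits Gsk3, was at least 2.18-fold higher at passage 15 than in MEF, where no array detected it, and its call was lost with the authors' deposited log2 values or an offset of 50. Gsk3b and Csnk1g1 differed by −1.55 and −2.07 by their brightest probes, but by −0.26 and −0.56 by a second probe. Of the nuclear partners, 7 tested of 12 listed, Bcl9l, a beta-catenin co-activator, differed from MEF by −1.72 at passage 5 and −2.87 at passage 15. The brightest Tle3 probe, of a Groucho family co-repressor, differed by −2.38 at passage 15 against MEF, while 2 other probes gave 0.51 and 0.12.

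Of the markers of other cell types, 0 of 3 macrophage and blood genes and 0 of 3 keratinocyte genes on the array passed the detection filter. Of 2 neural markers, Nes averaged 5.96 at passage 5, against 9.24 in MEF. Pax6 went the other way, detected on all 3 passage 5 arrays (mean 5.23) and on no MEF array (mean 4.53). Their summed intensity was 89.3 to 108.9 at passage 5, against 424.3 to 942.5 in MEF, where Nes made up most of it. The 3 endothelial markers summed to 498.4 to 672.1 at passage 5, against 232.5 to 361.9 in MEF. Endothelial sums were 658.8 to 793.3 at passage 15 and highest in MES, at 859.9 to 949.1. Pecam1 made up most of these sums, with means of 9.72 in MES and 8.93 at passage 5. Cdh5 went the other way, detected on all 3 passage 5 arrays (mean 5.37) and on no MES array (mean 4.57). Tek averaged 5.24 at passage 5, against 4.77 in MES. Of the 3 markers, 0 were called at passage 5 against MEF. Sums of 2 primitive streak and mesoderm markers were 165.1 to 190.7 at passage 5, against 87.7 to 114.1 in MEF.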
